A study of Homo sapiens with 32 samples.

Results

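The 10 genes described here encode secreted inflammatory mediators: the chemokines CXCL8, CXCL1, CXCL2, CXCL3 and CCL2, and the cytokines IL6, IL11, LIF, IL1A and IL32. They were chosen by name, as the probe sets (groups of short probes that read a transcript) whose current or older symbol is one of these, CXCL8 having been called IL8. All 10 were on the array, with 15 probe sets between them, out of 19775 genes with a symbol. Each gene was read by its brightest probe set. Of the 10 genes, 8 were among the 14695 that were bright enough to be tested, and IL6 and IL1A were not.

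RNA was measured on 32 Affymetrix arrays from H1299 and A549, human non-small cell lung cancer lines that are known to lack functional SMARCA4. SMARCA4 and its paralogue SMARCA2 are the ATPase motors of SWI/SNF chromatin remodelling complexes. Every line in the series was stable and carried an shRNA, either S2sh7, aimed at the ATPase domain of SMARCA2, or the control shLuc, aimed at luciferase, and was otherwise untreated. Every line also carried a cDNA: GFP as control, a wild-type form (WT), a bromodomain mutant (BRD) or an ATPase-dead mutant (ATPdead). H1299 received cDNAs of SMARCA2, and A549 cDNAs of SMARCA4, so the same short name stands for different proteins in the 2 lines. H1299 had 8 groups of 3 arrays, labelled as biological replicates, and A549 had 8 groups of 1 array. Nothing in the labels tells if replicates are separate infections or cultures, and p-values therefore reflect only the spread between these arrays, which may be technical. S2sh7 was the only hairpin against SMARCA2, and the labels do not say whether the cDNAs escape it. H1299 was Batch1 and A549 was Batch2, so line and batch cannot be told apart, and levels in the 2 lines are given side by side without a test.

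CXCL8, CXCL1, CXCL2 and CXCL3 belong to the CXC chemokine family and attract neutrophils through the receptors CXCR1 and CXCR2, while CCL2 attracts monocytes through CCR2. IL6, IL11 and LIF signal through receptors that share the subunit IL6ST (gp130) and activate STAT3, IL1A is an alarmin that signals through IL1R1, and IL32 is a cytokine of lymphoid and epithelial cells that induces other cytokines. In epithelial and carcinoma cells most of these genes are switched on by NF-kB together with AP-1 and C/EBP factors, and their mRNAs are short-lived because proteins such as ZFP36 bind AU-rich elements in them.

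The promoters of the 4 CXC chemokines are shown because these genes lie together on chromosome 4, share a receptor and yet gave different responses in A549. Each is 300 bases, from 250 before the first base of the gene to 50 bases into it, 5′ to 3′ on the strand of the gene, from RefSeq on GRCh38.p14. They are chr4:73740319-73740618 on the plus strand for CXCL8, chr4:73869143-73869442 on the plus strand for CXCL1, chr4:74099146-74099445 on the minus strand for CXCL2 and chr4:74038640-74038939 on the minus strand for CXCL3. Capitals mark matches to the 10-base NF-kB consensus, searched on both strands.
CXCL8: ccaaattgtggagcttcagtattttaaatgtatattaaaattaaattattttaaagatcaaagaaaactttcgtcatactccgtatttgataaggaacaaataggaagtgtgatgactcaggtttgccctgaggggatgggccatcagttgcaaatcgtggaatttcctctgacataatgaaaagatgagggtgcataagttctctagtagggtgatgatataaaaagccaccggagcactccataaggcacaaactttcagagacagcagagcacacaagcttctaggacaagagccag
CXCL1: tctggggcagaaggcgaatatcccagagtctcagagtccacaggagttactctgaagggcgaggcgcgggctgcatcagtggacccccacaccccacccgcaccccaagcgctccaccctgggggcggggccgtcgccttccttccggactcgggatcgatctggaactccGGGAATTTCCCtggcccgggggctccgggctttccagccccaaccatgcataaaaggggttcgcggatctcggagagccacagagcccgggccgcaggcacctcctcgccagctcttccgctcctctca
CXCL2: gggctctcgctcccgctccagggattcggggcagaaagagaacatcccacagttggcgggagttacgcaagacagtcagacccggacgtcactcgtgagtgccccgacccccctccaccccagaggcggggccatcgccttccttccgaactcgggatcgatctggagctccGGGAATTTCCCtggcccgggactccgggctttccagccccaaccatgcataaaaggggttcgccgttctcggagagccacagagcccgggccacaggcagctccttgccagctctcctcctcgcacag
CXCL3: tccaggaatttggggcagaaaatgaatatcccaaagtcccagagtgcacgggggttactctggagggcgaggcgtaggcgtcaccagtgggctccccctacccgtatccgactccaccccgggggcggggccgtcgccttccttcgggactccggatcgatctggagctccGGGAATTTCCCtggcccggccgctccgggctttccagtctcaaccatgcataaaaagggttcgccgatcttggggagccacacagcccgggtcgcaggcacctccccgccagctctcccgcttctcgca
CXCL1, CXCL2 and CXCL3 held the same 11-base stretch GGGAATTTCCC, in which a match on each strand overlaps, at -79 to -69 relative to the first base of CXCL1 and CXCL3 and at -78 to -68 in CXCL2. In a global alignment with gaps, 84.7% of 300 bases were identical between CXCL1 and CXCL3, 80.0% between CXCL1 and CXCL2 and 78.7% between CXCL2 and CXCL3, against 54.7% to 57.3% between CXCL8 and each of the 3. CXCL8 had no full match to the NF-kB consensus in these letters, though it held ggaatttcc, which lies within that 11-base stretch. It also held the AP-1 sequence TGANTCA and, on the forward strand, TATAAA. Promoters were listed for 8 of the 10 members, all but CCL2 and LIF. Among the others, IL6 and 1 of the 2 IL32 windows also matched the NF-kB consensus, IL11 and IL1A matched TGANTCA, and CXCL2 and IL6 matched TTGCNNAA, the C/EBP sequence. All these motifs were searched on both strands except TATAAA, which was searched on the forward strand alone. Of 35116 promoters of the same length, 5.91% held the NF-kB consensus, 7.71% TGANTCA, 10.5% TTGCNNAA and 7.33% TATAAA. A match is a sequence description and does not show that a factor binds there. The lack of a match does not show that no factor binds.

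The deposited values are RMA intensities, which have no detection call, so the level of each gene was set beside 24 genes restricted to other tissues, such as eye, muscle or pancreas. The 90th percentile of these genes was 5.27 log2 in H1299 (an intensity of 38.7) and 6.06 log2 in A549 (66.9), and a gene with no group mean above it is called near background in that line. In A549 the 5 chemokines, IL11 and LIF were above this level in all 8 groups, IL32 was above it in 4 of 8, and IL6 and IL1A were near background. In H1299 CXCL2, IL11 and LIF were above it in all 8 groups and IL32 in 5 of 8, while CXCL8, CXCL1, CXCL3, CCL2, IL6 and IL1A were near background. The group means of CXCL8 in H1299 ran only from 2.72 to 2.86 log2, and those of CCL2 from 2.82 to 3.06. In A549 the arrays ran from 6.16 to 9.70 log2 for CXCL8 and from 7.78 to 11.81 for CCL2.

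Across the whole series the labels could be checked on SMARCA2, the keratins and markers of other cells. SMARCA2 fell with S2sh7 by 1.30 log2 in H1299 with GFP (limma adjusted p = 7.85e-09) and by 3.02 in A549 over the 4 cDNAs (0.00160). SMARCA4, on its brightest probe set, was also called lower in H1299 with GFP (-0.60, limma adjusted p = 7.46e-07). The same held with WT (-0.33), BRD (-0.30) and ATPdead (-0.37). In A549 it was called higher over the 4 cDNAs (0.23, limma adjusted p = 0.0395). Among shLuc arrays of A549, SMARCA4 was at 4.56 log2 in the GFP line and at 6.64 to 6.91 in the lines with a SMARCA4 cDNA, on 1 of its 9 probe sets, singled out after its values were seen. The other SMARCA4 probe sets did not show such a step. In A549 S2sh7 arrays, the probe set with the step read 4.97 log2 for GFP, 7.24 for ATPdead, 7.88 for WT and 7.91 for BRD. ATPdead thus read lower there than WT and BRD, so the ATPase states compared below also differed in this reading. Whether the amount of SMARCA4 cDNA had a part in the A549 results was not tested. Among shLuc groups of H1299, SMARCA2 was likewise at 5.41 log2 with GFP against 6.91, 6.75 and 6.77 with WT, BRD and ATPdead on 1 of its 7 probe sets, and at 5.69 against 6.17, 6.11 and 6.22 on another, both also singled out after their values were seen. Its brightest probe set, on which the knockdown is given, showed no step (-0.11, 0.06 and -0.01 against GFP, none called). With S2sh7 the SMARCA2 probe set of the larger step read 4.64 with GFP, 6.25 with WT, 6.07 with BRD and 5.82 with ATPdead. That of the smaller step read 4.33, 4.97, 4.84 and 4.96 in the same order. All these SMARCA2 readings were lower than with shLuc, and whether the hairpin lowered the cDNAs was not tested. Replicate arrays of H1299 correlated at 0.998 to 0.999. KRT8, KRT18 and KRT7, keratins of simple epithelia, were above the reference level in both lines, and KRT19 in A549. The sum of the 4 was lower with S2sh7 (6400 to 7614 in H1299, 18216 to 19204 in A549) than with shLuc (9321 to 10017 and 26767 to 30594). Of 7 leukocyte markers 3 had a group mean above the reference level in H1299 (CD3E, CD79A and ITGAM) and 3 in A549 (CD14, CD3E and CD79A), CD3E being also 1 of the reference genes. PTPRC, which defines leukocytes, reached 3.45 log2 in H1299 and 3.94 in A549, under it. The sum of the leukocyte markers was 156 to 184 with shLuc and 160 to 179 with S2sh7 in H1299, and 335 to 382 and 271 to 323 in A549. Of 4 tested in A549, 1 was called over the 4 cDNAs, CD14, which was lower (-1.13, limma adjusted p = 0.0264). It ran from 5.08 log2, under the reference level, to 6.98. Of 3 endothelial markers PECAM1 was above the reference level in both lines, and of 4 fibroblast markers COL1A1 and DCN were in H1299 and COL1A1 and COL3A1 in A549. The fibroblast sum was 433 to 471 with shLuc and 489 to 608 with S2sh7 in A549, where COL3A1 was called higher over the 4 cDNAs (limma adjusted p = 0.00634) and ran from 3.63 log2, under the reference level, to 7.47. The part of such cells in the results was not tested. In cultured cells read in bulk, fewer expressing cells and less RNA per cell cannot be told apart.

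**Figure D1:**
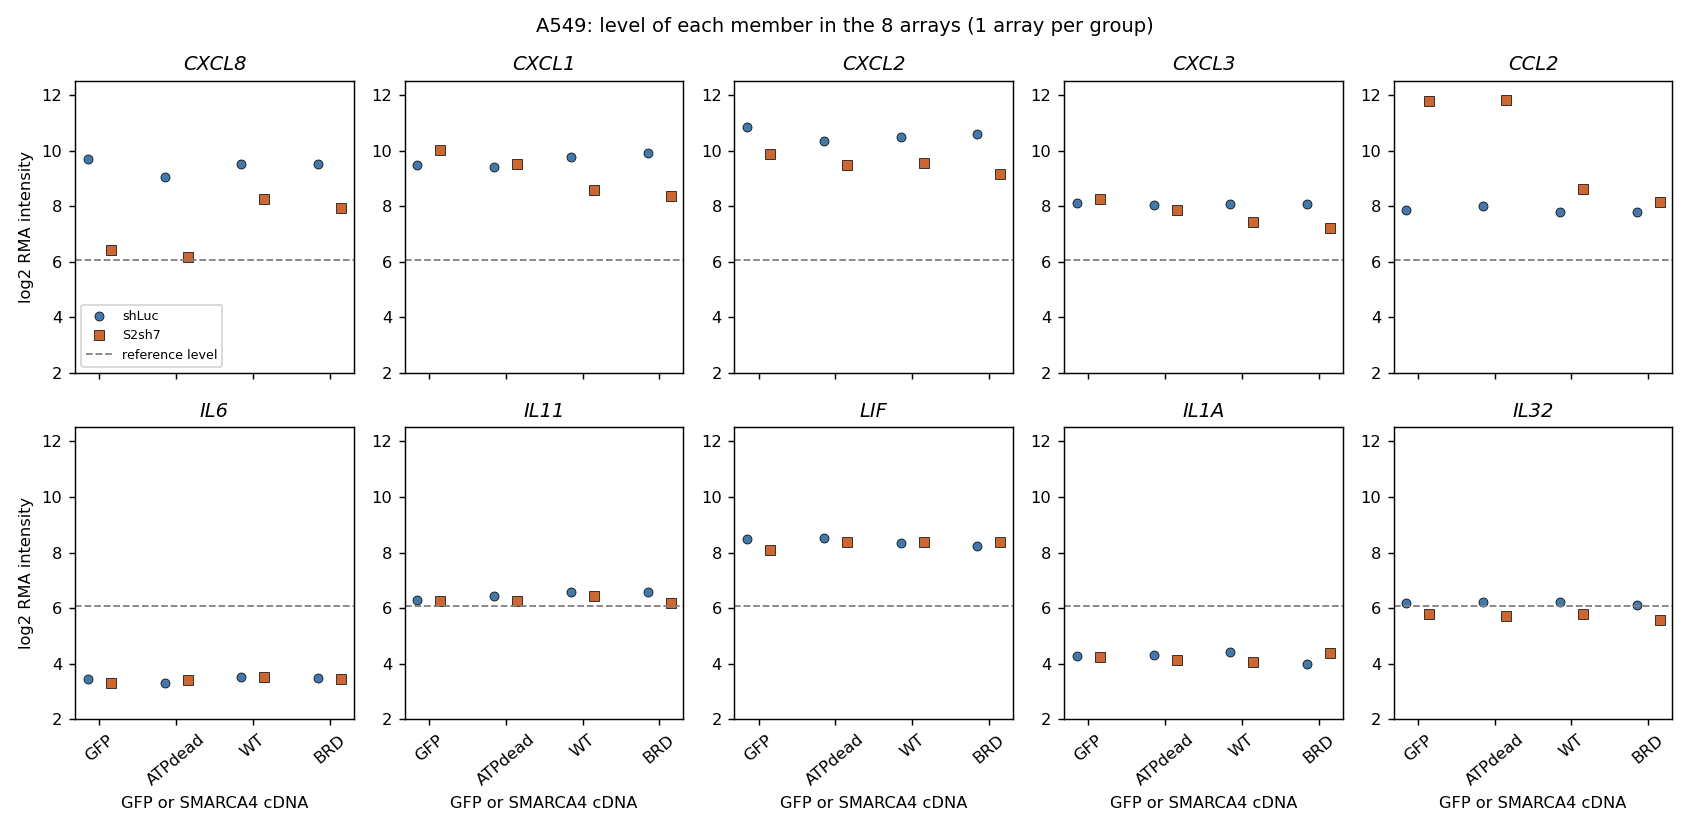
Level of each of the 10 members in the 8 A549 arrays, as log2 RMA intensity on the y axis, by cDNA on the x axis and by shRNA (circles shLuc, squares S2sh7), with 1 array per point. The dashed line is the reference level of 6.06 log2. CCL2 with S2sh7 stands at 11.78 and 11.81 with GFP and ATPdead but at 8.63 and 8.15 with WT and BRD, while CXCL8 shows the opposite split.

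In A549, the chemokines differed between S2sh7 and shLuc by different amounts and in different directions, and for 4 of them the difference itself varied with the SMARCA4 cDNA. CCL2 rose 14.7-fold with GFP or ATPdead, where no active SMARCA4 was added, and 1.52-fold with WT or BRD. CXCL8 fell in both settings and further in the first. CXCL1 and CXCL3 fell with WT or BRD and were not called with GFP or ATPdead, and the difference between these effects was itself called. CXCL2 fell in both. For these comparisons the arrays of GFP and ATPdead were taken as a pair and those of WT and BRD as a pair, so the spread is between 2 different cDNAs and not between replicates of a line. With S2sh7 against shLuc in the GFP and ATPdead cells, 5 of the 8 tested members were called (adjusted p under 0.05), 1 higher and 4 lower, and their median log2 difference was -0.20, against 49.8% of all genes called and a median of 0.004. In the WT and BRD cells 6 of 8 were called, 1 higher and 5 lower, with a median of -0.61, against 21.3% of all genes and a median of 0.01. The difference between these effects was called for 4 of 8, against 23.9% of all genes. These comparisons draw on the same 8 arrays.

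CCL2, the monocyte chemoattractant, had the largest response. With shLuc its intensity was 230.2 with GFP, 256 with ATPdead, 221 with WT and 221 with BRD. With S2sh7 it was 3517, 3600.5, 396 and 283 in the same order. The 4 shLuc arrays lay close together, every S2sh7 array was above all of them, and the GFP and ATPdead arrays under S2sh7 were far above the rest. The rise was 3.87 log2 (SE 0.14, limma adjusted p = 8.02e-07) with GFP or ATPdead and 0.60 (SE 0.14, 0.0198) with WT or BRD. The difference was -3.27 (95% interval -3.73 to -2.82, adjusted p = 6.77e-05). Under S2sh7, CCL2 was 3.41 log2 lower with WT or BRD than with GFP or ATPdead, a 10.6-fold difference (limma adjusted p = 4.09e-06). The small rise with WT or BRD lost its call without the shLuc array of WT or that of BRD (adjusted p up to 0.0917), whereas the other 3 calls kept their call in all 13 to 17 settings tried. In a fit with 1 knockdown effect for all 4 cDNAs, CCL2 had a difference of 2.24 with an SE of 0.71 and was not called (limma adjusted p = 0.0776).

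CXCL8, the main neutrophil attractant of the family, moved the other way. With shLuc it read 832 with GFP, 526 with ATPdead, 724 with WT and 736 with BRD. With S2sh7 it read 86.5, 71.4, 303 and 242. Every S2sh7 array was below every shLuc array, and the GFP and ATPdead arrays under S2sh7 were the lowest of all, close to the reference intensity of 66.9, so what remained there may have been less. CXCL8 fell by 3.07 log2 (SE 0.21, limma adjusted p = 1.25e-05) with GFP or ATPdead and by 1.43 (SE 0.21, 0.00317) with WT or BRD. The difference was 1.64 (95% interval 0.97 to 2.32, adjusted p = 0.00577), and under S2sh7 CXCL8 was 3.44-fold higher with WT or BRD than with GFP or ATPdead (adjusted p = 3.57e-04). A second, dimmer probe set, 211506_s_at, also fell, by 2.57 and 1.53 log2, but its difference of 1.05 (SE 0.45) was not called when each probe set was tested on its own (limma adjusted p = 0.152), and 2 of its S2sh7 readings were under the reference level.

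CXCL1, another neutrophil attractant, was 719.6, 686, 880.0 and 959.7 with shLuc and GFP, ATPdead, WT and BRD. With S2sh7 it was 1028, 739, 385 and 331. The WT and BRD arrays under S2sh7 were the lowest of the 8, and the GFP array under S2sh7 was the highest. CXCL1 gave 0.31 log2 (SE 0.15, limma adjusted p = 0.116) with GFP or ATPdead, which was not called, and fell by 1.36 (SE 0.15, 9.89e-04) with WT or BRD. The difference was -1.68 (95% interval -2.16 to -1.19, adjusted p = 0.00112). CXCL3 likewise fell with WT and BRD, by less. It went from 278 to 309.6 with GFP and from 261 to 235 with ATPdead, and from 267 to 172 with WT and from 273 to 149 with BRD. The shLuc arrays of CXCL3 spanned only 261 to 278, and the 2 arrays with WT or BRD under S2sh7 were the lowest. CXCL3 gave 0.0001 log2 (SE 0.13) with GFP or ATPdead and fell by 0.76 (SE 0.13, limma adjusted p = 0.00606) with WT or BRD, and the difference of -0.76 was called (adjusted p = 0.0200). That last call was lost without the array of shLuc WT, shLuc BRD, S2sh7 BRD or shLuc ATPdead (adjusted p up to 0.0705).

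CXCL2, which has the same receptor, fell in all 4 pairs: from 1848 to 947.6 with GFP, from 1287 to 713 with ATPdead, from 1447 to 754 with WT and from 1530 to 578 with BRD. No S2sh7 array reached the lowest shLuc array. The fall was 0.91 log2 (SE 0.20, limma adjusted p = 0.00635) with GFP or ATPdead and 1.17 (SE 0.20, 0.00638) with WT or BRD. Their difference of -0.26 was not called (95% interval -0.93 to 0.40, adjusted p = 0.565). The probe set 1569203_at of CXCL2 fell as well, by 1.11 and 0.74 log2, while 230101_at was under the reference level in every array. CXCL1, CXCL2 and CXCL3 are close paralogues, and the suffix of the CXCL2 probe set 209774_x_at marks probes that can also match related transcripts, so signal shared between them cannot be separated here. The probe set on which CXCL8 was read, 202859_x_at, carries the same suffix. Over the 8 arrays, which share the shRNA contrast, CXCL1 and CXCL3 had a Pearson r of 0.96, CXCL2 and CXCL3 of 0.75, CXCL1 and CXCL2 of 0.65, CXCL1 and CXCL8 of 0.04, and CXCL8 and CCL2 of -0.94.

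Of the cytokines that signal through gp130, LIF changed less in A549 than CCL2 or CXCL8, and the reading of IL11 depended on the probe set. LIF, which activates STAT3, went from 357 to 274 with GFP, from 371 to 331 with ATPdead, from 327 to 331 with WT and from 299.6 to 331 with BRD. The GFP array under S2sh7 was the lowest of the 8. LIF fell by 0.27 log2 (SE 0.09, limma adjusted p = 0.0391) with GFP or ATPdead and gave 0.08 (0.588) with WT or BRD, and their difference of 0.35 was not called (adjusted p = 0.0904). The call was lost in 5 of 13 settings, among them without the array of shLuc GFP, S2sh7 GFP or shLuc ATPdead (adjusted p up to 0.214). IL11, a cytokine of stromal and tumour cells, was read by probe sets that disagree. On 206926_s_at it was 73.1 to 95.5 in all 8 arrays and was called in none of the A549 comparisons, with -0.12 log2 with GFP or ATPdead and -0.26 with WT or BRD (limma adjusted p = 0.296 and 0.0735). On 206924_at it went from 200.2 to 87.8 with GFP, from 214 to 90.5 with ATPdead, from 297 to 229 with WT and from 278 to 79.1 with BRD. On that probe set the difference was -1.15 log2 over the 4 cDNAs (SE 0.22) and was called (limma adjusted p = 0.0281). In H1299 206924_at was near background, which made 206926_s_at the brighter over all arrays. IL6, the founding member of this group, read 9.98 to 11.6 in A549, and IL1A 15.8 to 21.6, both near background with either shRNA, so no direction can be given.

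IL32 fell with every cDNA in A549: from 73.3 to 56.0 with GFP, from 74.2 to 53.0 with ATPdead, from 73.8 to 56.0 with WT and from 68.6 to 47.9 with BRD. The shLuc readings were all above 66.9, the reference intensity, and the S2sh7 readings were all below it, so the fall may be larger than read. It was 0.44 log2 (SE 0.08, limma adjusted p = 0.00312) with GFP or ATPdead and 0.46 (SE 0.08, 0.00811) with WT or BRD, and the difference was -0.02 (95% interval -0.30 to 0.25, adjusted p = 0.920). The call with WT or BRD was lost without the shLuc WT array (adjusted p = 0.0639).

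With 1 effect of S2sh7 over all 4 cDNAs in A549, 3 of 8 members were called, all lower, against 21.1% of all genes: CXCL2 (-1.04, SE 0.10), CXCL8 (-2.25, SE 0.37) and IL32 (-0.45, SE 0.05), with limma adjusted p of 0.0113, 0.0228 and 0.0150. All 3 calls were lost without the GFP pair or without the ATPdead pair, and those of CXCL8 and IL32 also without the WT pair. With shLuc, the comparison of WT or BRD with GFP or ATPdead called 0 of 8 members in limma, against 0% of all genes (0 of 14695). At an unadjusted p under 0.05 there were 2 members, LIF (-0.22) and CXCL1 (0.39), and 746 genes, and the smallest adjusted p among members was 0.962. Under S2sh7 the same comparison called 4 of 8 members, CXCL8 higher and CXCL1, CXCL3 and CCL2 lower, against 38.7% of all genes. CXCL1 was lower by 1.29 log2 and CXCL3 by 0.75 (limma adjusted p = 3.33e-04 and 0.00247), while CXCL2 (-0.32), IL11 (0.06), LIF (0.14) and IL32 (-0.07) were not called.

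**Figure D2:**
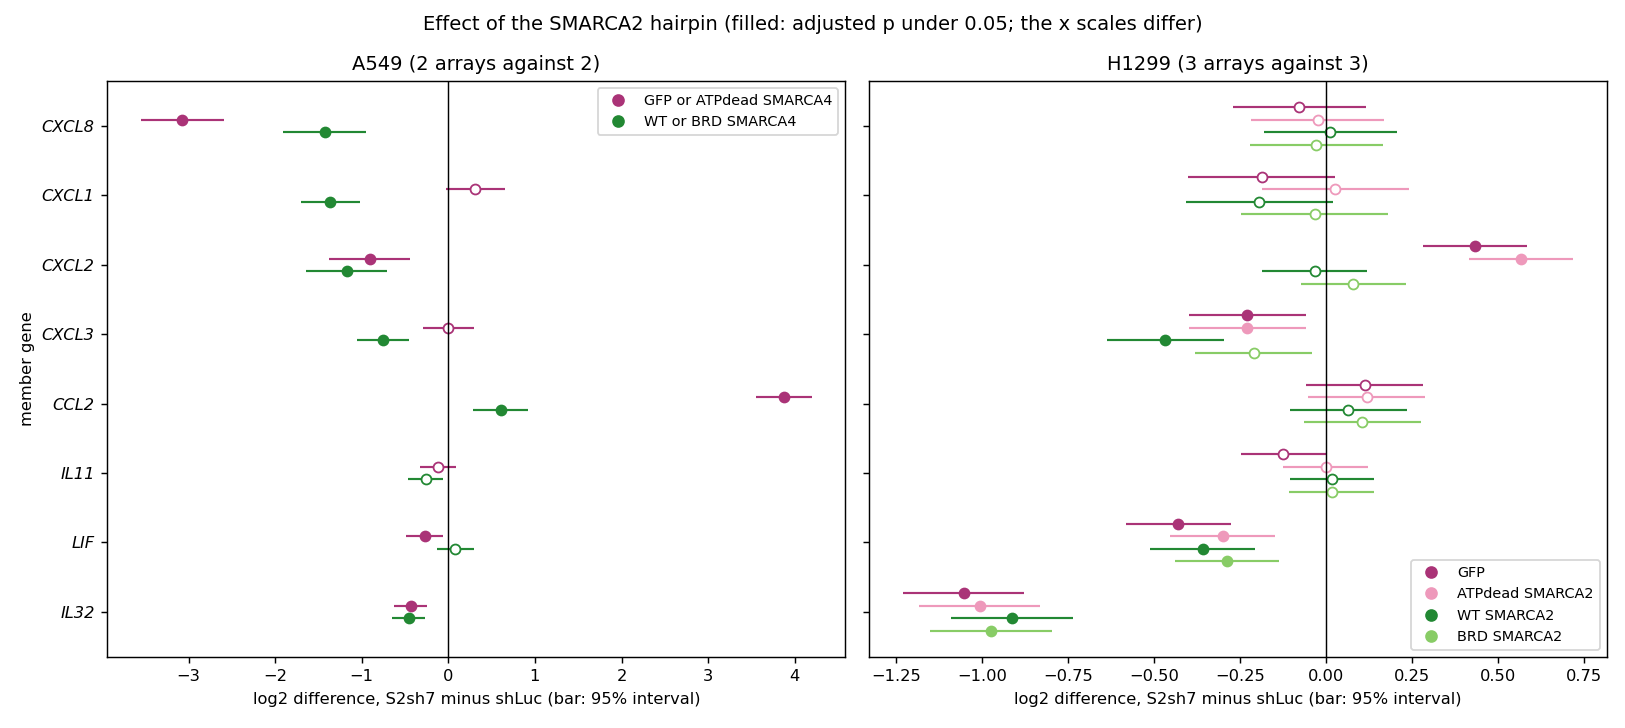
Log2 difference of S2sh7 minus shLuc for the 8 tested members, in A549 (left, arrays paired by ATPase state of the SMARCA4 cDNA) and H1299 (right, by SMARCA2 cDNA). Bars are 95% intervals from limma, filled points have an adjusted p under 0.05, and the x scales differ. In A549 the intervals of CCL2, CXCL8, CXCL1 and CXCL3 lie apart between the ATPase states, and in H1299 IL32 lies near -1 with all 4 cDNAs.

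In H1299, where 6 of the 10 genes were near background, the responses were smaller and involved other members. IL32 and LIF fell with S2sh7 whichever cDNA was present, and CXCL2 rose with GFP and ATPdead SMARCA2 but was not called with WT or BRD. With GFP, 4 of 8 tested members were called with S2sh7, 1 higher and 3 lower (median -0.16 log2), against 29.7% of all genes (median 0.01). With WT, 3 were called, all lower, against 26.5%. With BRD, 2 were called, both lower, against 23.7%. With ATPdead, 4 were called, 1 higher and 3 lower, against 28.4%. These shares of 8 are small numbers beside a background of that size. CXCL8, CXCL3 and CCL2 had 0 H1299 arrays over 5 log2, so they were bright enough to be tested only through A549. The counts and medians include them, and CXCL3 is among the members called lower with GFP, WT and ATPdead. With a filter on the reference level of H1299 itself, only CXCL2, IL11, LIF and IL32 remained.

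**Figure D3:**
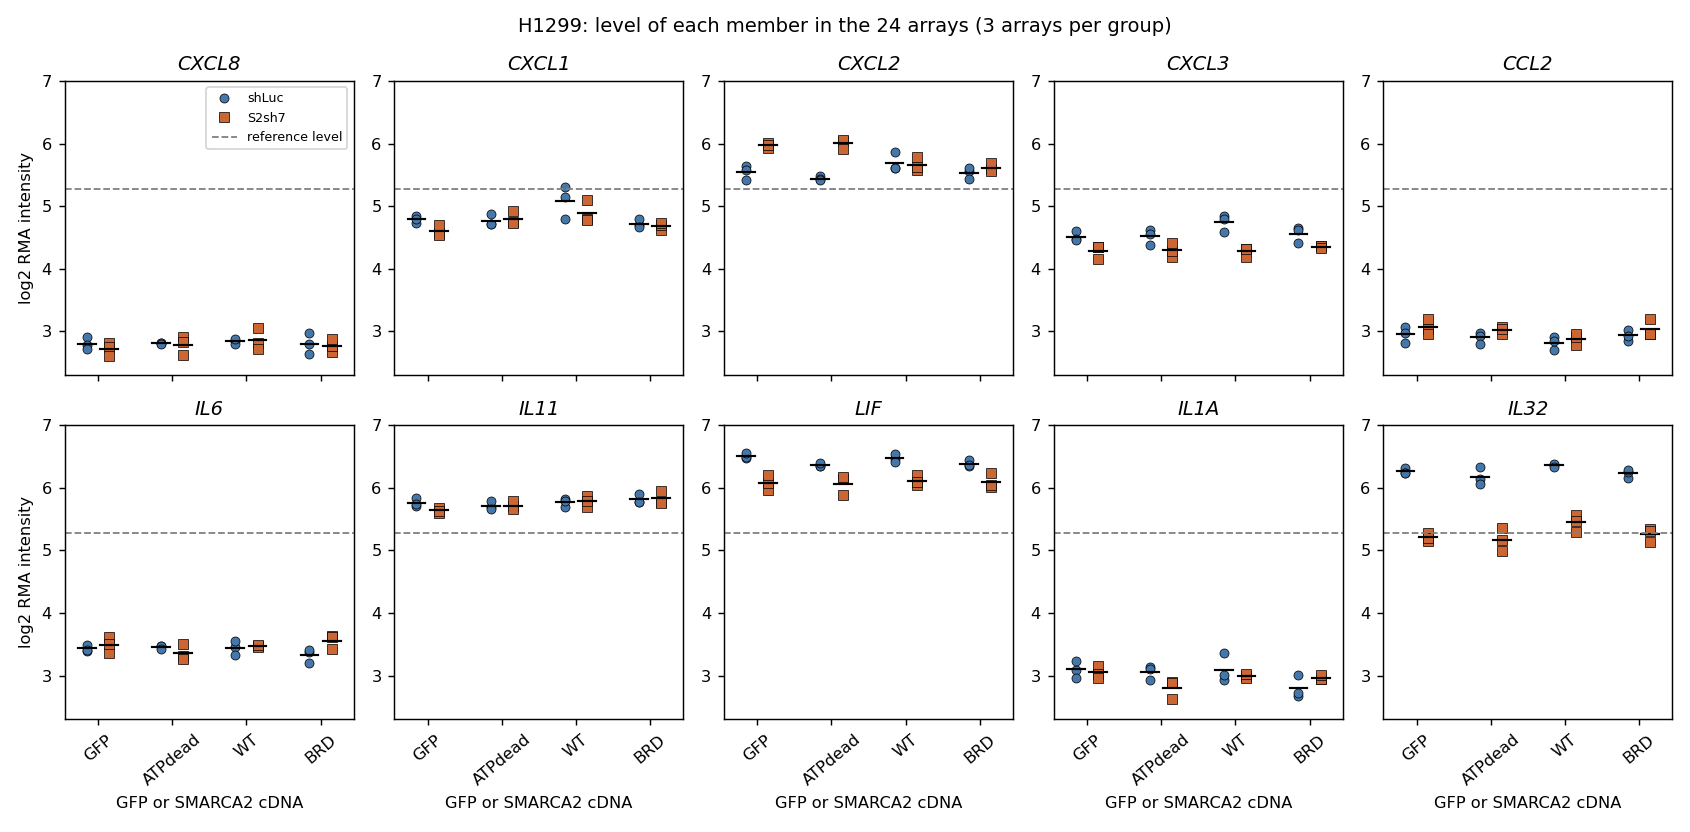
Level of each of the 10 members in the 24 H1299 arrays, as log2 RMA intensity on the y axis, by cDNA on the x axis and by shRNA (circles shLuc, squares S2sh7). Points are arrays, black bars the means of 3, and the dashed line the reference level of 5.27 log2. IL32 and LIF separate by shRNA with every cDNA, and CXCL2 separates with GFP and ATPdead.

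IL32 had the largest change among the members in H1299. With shLuc its 12 arrays ran from 6.07 to 6.38 log2 with a median of 6.28, and with S2sh7 the other 12 ran from 5.00 to 5.57 with a median of 5.29. The 2 sets did not overlap, and the S2sh7 arrays lay around the reference level of 5.27. With GFP the group means were 6.27 ± 0.05 and 5.21 ± 0.07 log2 (SD, n = 3 each), a fall of 1.05 (SE 0.08, limma adjusted p = 9.79e-09). IL32 fell by 0.91 with WT, 0.97 with BRD and 1.01 with ATPdead, and the difference of these effects from that with GFP was at most 0.14, with 95% intervals that reached from -0.20 to 0.39 and no call (limma adjusted p of 0.630, 0.896 and 0.921). Under S2sh7, IL32 was 0.27 log2 lower with ATPdead than with WT, which was not called (adjusted p = 0.0948).

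LIF also separated by shRNA. Its shLuc arrays ran from 6.35 to 6.56 log2 (median 6.44) and its S2sh7 arrays from 5.89 to 6.23 (median 6.08), with no overlap between 12 and 12. The falls were 0.43 with GFP (SE 0.07), 0.36 with WT, 0.29 with BRD and 0.30 with ATPdead, with limma adjusted p of 1.44e-04, 9.60e-04, 0.00638 and 0.00377. The differences from the effect with GFP were 0.07, 0.14 and 0.13, none of them called. CXCL3 lay between 4.16 and 4.85 log2 in all 24 arrays, under the reference level. It was called lower with GFP (-0.23), WT (-0.47) and ATPdead (-0.23) and not with BRD (-0.21, limma adjusted p = 0.0678). The calls with GFP and ATPdead were lost in 8 and 9 of 16 settings, among them without shLuc GFP replicate 1, 2 or 3, without S2sh7 GFP replicate 1, and without shLuc ATPdead replicate 2 or 3 or S2sh7 ATPdead replicate 1 or 2 (adjusted p up to 0.182).

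CXCL2 was the member whose response to S2sh7 differed between cDNAs in H1299. With shLuc its group means were 5.54 ± 0.11 log2 with GFP, 5.44 ± 0.03 with ATPdead, 5.69 ± 0.15 with WT and 5.54 ± 0.09 with BRD (SD, n = 3 each). With S2sh7 they were 5.97 ± 0.04, 6.01 ± 0.08, 5.66 ± 0.11 and 5.62 ± 0.07 in the same order. The 6 S2sh7 arrays with GFP or ATPdead, at 5.91 to 6.06, were above all other 18, which ran up to 5.86, and the 2 groups overlapped each other. The other 6 groups overlapped their neighbours in order. CXCL2 rose by 0.43 with GFP (SE 0.07, limma adjusted p = 1.29e-04) and by 0.57 with ATPdead (6.39e-06), and gave -0.03 with WT and 0.08 with BRD, neither called. The effect with WT differed from that with GFP by -0.47 (SE 0.10, limma adjusted p = 0.0214), which was the 1 member called of 8, against 2.28% of all genes. For BRD the same difference was -0.35 (adjusted p = 0.170) and 0 of 8 members were called in limma, with 1 at an unadjusted p under 0.05, against 0.558% of all genes. For ATPdead it was 0.13 (adjusted p = 0.657), with 0 of 8 members called in limma and 0 at an unadjusted p under 0.05, against 0.0612%.

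Under S2sh7, CXCL2 was 0.35 log2 higher with ATPdead than with WT (SE 0.07, limma adjusted p = 0.0103), the 1 member called of 8, against 3.02% of all genes. BRD and WT under S2sh7 differed in 0 of 8 members in limma, with 1 at an unadjusted p under 0.05 (IL32, -0.18), against 0.0612% of all genes. The interaction with WT was lost without S2sh7 GFP replicate 1 or S2sh7 WT replicate 2, and with its probe sets averaged, where it was -0.12 (adjusted p = 0.516). The difference between ATPdead and WT was lost without S2sh7 WT replicate 2 or S2sh7 ATPdead replicate 2. The 2 dimmer probe sets of CXCL2 were near background in H1299. Of these, 1569203_at did not show the same pattern when each probe set was tested on its own. It was called higher with BRD (0.42, limma adjusted p = 0.0226) and ATPdead (0.35, 0.0481), but not with GFP (0.17) or WT (0.13). Its interaction with WT was -0.04 and was not called. The pattern by cDNA was therefore read on 209774_x_at alone. The direction of CXCL2 with S2sh7 and GFP was thus higher in H1299 and lower in A549, a difference between lines that was not tested.

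With shLuc alone, no member was called for any SMARCA2 cDNA in H1299. WT against GFP called 0 of 8 in limma, with 2 at an unadjusted p under 0.05, CXCL1 (0.30) and CXCL3 (0.24), against 2.74% of all genes. BRD against GFP called 0, with 0 at an unadjusted p under 0.05, against 1.37%, and ATPdead against GFP called 0, also with 0 at an unadjusted p under 0.05, against 0.122%. Without shLuc WT replicate 1, CXCL1 was called with WT against GFP. CXCL1 ran from 4.54 to 5.31 log2 over the 24 arrays, with its highest group mean, 5.08, in shLuc WT. IL11 on 206926_s_at had group means between 5.64 and 5.83 log2 in H1299 and was called in no comparison. IL6 ran from 3.20 to 3.63 and IL1A from 2.63 to 3.35 over the 24 arrays, near background, and were not tested.

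Other genes of the pathway were read from 5 lists chosen for their function, and are described by counts. Of 23 genes of NF-kB and IL-1 signalling, 21 were tested. With S2sh7 and GFP in H1299, 13 of these were lower and 0 higher (median -0.14), against 16.1% of all genes lower and 13.6% higher. They included NFKBIE (-0.86) and NFKBIA (-0.46), which hold NF-kB in the cytoplasm, TNFAIP3 (-0.70), an enzyme that ends NF-kB signalling, and IRAK2 (-0.54), a kinase of the IL-1 receptor pathway. With GFP or ATPdead in A549 the counts turned, with 12 higher and 2 lower (median 0.48), where 27.0% of all genes were higher. RELB (1.60) and NFKB2 (1.14), the subunits of the noncanonical NF-kB dimer, and IRAK2 (0.85) rose, and NFKBIZ (-2.05), a nuclear cofactor of NF-kB, fell. RELB was just under the reference level in its lowest array, at 5.96 log2. With WT or BRD in A549, 4 were higher and 2 lower, against 21.3% of all genes called. The difference between the ATPase states was called for 11 of 21, 10 lower and 1 higher with WT or BRD, against 23.9% of all genes, among them RELB (-1.07) and NFKB2 (-0.95).

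Of 27 other cytokines and chemokines, 16 were tested. In H1299 with GFP 4 were lower and 0 higher, against 29.7% of all genes called: CCL5 (-0.53), a T cell attractant, the lymphocyte growth factors IL15 (-0.53) and IL7 (-0.39), and CXCL10, an interferon-induced chemokine that was near background in every array (4.32 to 5.24 log2). In A549 with GFP or ATPdead 5 were higher and 2 lower, fewer than the 49.8% called among all genes. CCL20, which attracts dendritic cells and lymphocytes bearing CCR6, was called higher (limma adjusted p = 7.25e-06) and reached 9.15 log2 in its highest array. Its lowest array, at 3.61, was far under the reference level, so no size of the rise is given. IL18 rose (0.73) and IL15 fell (-2.26), and CCL5 was called higher but lay near background in all 8 arrays (4.94 to 5.54 log2). With WT or BRD 0 were higher and 3 lower, against 21.3% of all genes called. The difference between the states was called lower for CCL20, and was -2.14 for CXCL5, a neutrophil attractant, and 1.52 for IL15, both called.

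Of 20 receptors and antagonists, 16 were tested. In H1299 with GFP 4 were higher and 4 lower, against 29.7% of all genes called, among them IL11RA (0.52), the receptor of IL11, IL6ST (0.22), TNFRSF1A (-0.20) and IL1RAP (-0.24). In A549 with GFP or ATPdead 2 were higher and 7 lower, near the 49.8% called among all genes. The falls included IL1R1 (-1.94), the receptor of IL1A, IL6R (-1.42) and LTBR (-1.47), the lymphotoxin receptor, while IL6ST rose (0.77). IL6R was under the reference level in its lowest array, at 5.59 log2. Of the receptors of these chemokines, CXCR1 lay at 5.57 to 5.98 log2 in H1299 and 6.82 to 7.03 in A549, above the reference level. CXCR2 ran from 2.55 to 3.33 log2 and CCR2 from 3.10 to 4.39 over both lines, under it.

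Of 12 genes of STAT3 and C/EBP signalling, 4 were higher and 3 lower in H1299 with GFP, against 29.7% of all genes called. The 3 lower genes were STAT3 (-0.30), CEBPB (-0.38) and BCL6 (-0.47). In A549 with GFP or ATPdead 5 were higher, among them the kinases PIM1 (1.11), JAK2 (1.03) and JAK1 (1.07), and 4 were lower, including CEBPA (-0.82), against 49.8% of all genes called. Of 8 tested regulators of mRNA decay, 1 was higher and 2 lower in H1299 with GFP, against 29.7% of all genes called. In A549 with GFP or ATPdead 0 were higher and 5 lower, against 49.8% called and 22.9% lower among all genes. ZFP36, which destabilises cytokine mRNAs, fell by 1.30 log2 in that A549 comparison and by 1.14 with WT or BRD in A549, and rose by 0.11 in H1299 with GFP. ZFP36L2 fell by 1.38 in A549 with GFP or ATPdead, and this effect differed between the states by 1.28 (limma adjusted p = 3.59e-04).

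**Figure D4:**
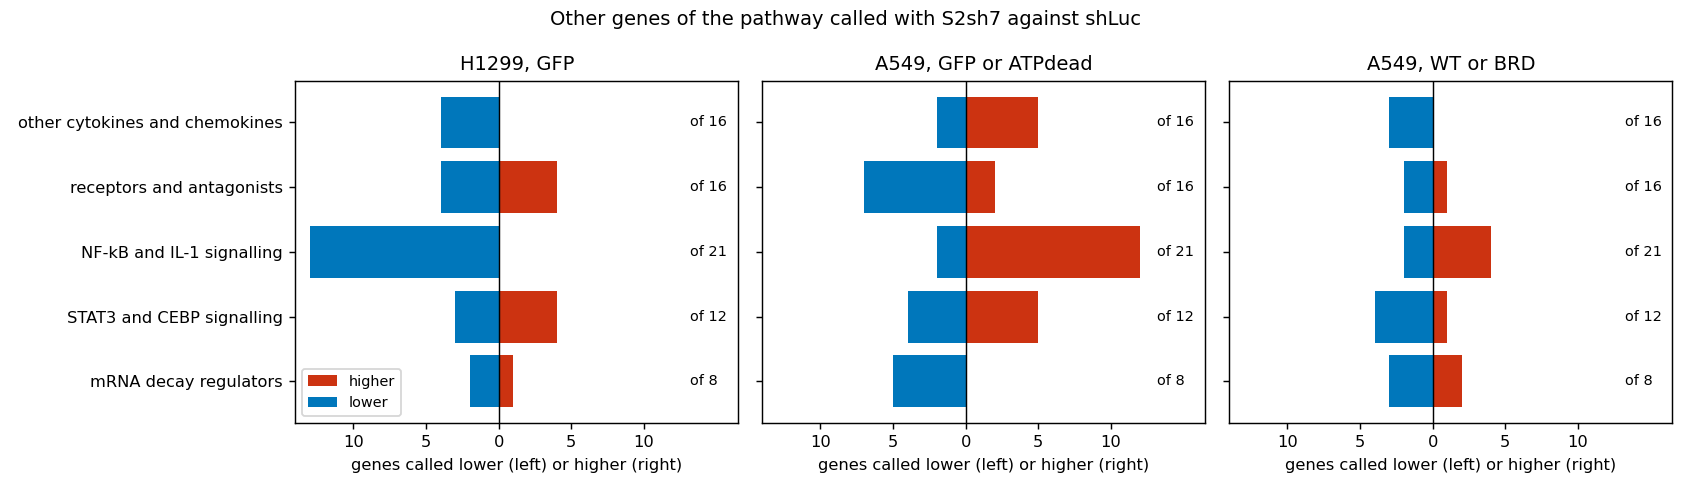
Number of genes called lower (bars to the left) and higher (bars to the right) with S2sh7 against shLuc in each of 5 pathway lists, for H1299 with GFP and for A549 by ATPase state. The number tested is printed beside each bar. In NF-kB and IL-1 signalling 13 genes were lower in H1299 and 12 were higher in A549 with GFP or ATPdead.

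The genes whose levels followed a member most closely were found by Pearson correlation over the arrays of a line, for the 3 members with the widest range of group means in it. In A549, over 8 arrays, CCL2 was followed by CSRP2, FERMT2 and RIPK2 (r of 0.998 each), CXCL8 by TSC22D1, BCKDHA and MTF2 (0.997 to 0.999) and CXCL2 by CIDEC, CEBPB and MLST8 (0.984 to 0.990). In H1299, over 24 arrays, IL32 was followed by SNAPC1, ZNF568 and MED20 (0.976 to 0.979), CXCL2 by WDR3, IPO7 and TBC1D4 (0.864 to 0.884) and CXCL1 by DCUN1D5, SLCO1B3 and RAB30-DT (0.741 to 0.759). These points share the shRNA and cDNA groups. The genes named had the highest r among all tested genes outside the members, and no r was tested. CXCL1 was near background in H1299.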

How the data were processed

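The authors deposited 1 RMA value for each probe set, a linear intensity. The submitters' processing notes name RMA and limma. Their versions and any genome build are not given in the sources used here. The design had assumed log2 values, so log2 was taken with no pseudocount. Gene symbols came from the platform annotation, updated through the RefSeq gene table.

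For each gene the probe set with the highest mean over all 32 arrays was kept. A gene was tested in both lines if 3 or more of these arrays exceeded 5 log2. Tests used limma 3.58.1 in R 4.3.3. H1299 had 1 mean per group (16 residual degrees of freedom). A549 had additive terms for cDNA and shRNA (3), or 1 mean per shRNA and ATPase state (4). P-values were Benjamini-Hochberg adjusted over 14695 genes and genes called under 0.05. Promoters were read and aligned with Biopython 1.88, and figures drawn with Python 3.11.15 and matplotlib 3.10.9.

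Members and lists were chosen with earlier results of these data known. All 10 members are named, and up to 4 called genes of smallest adjusted p per list. Alternatives were other probe set rules, filters, scalings, eBayes options, array weights, only the arrays compared, a replicate block and leaving out each array.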

Additional observations from a re-analysis of the deposited data

Results flagged for a closer look

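Of the members, 5 effects of S2sh7 differed between cDNAs of the same line by the test of that difference. In H1299 the effect on CXCL2 with WT minus that with GFP was -0.47 log2 (SE 0.10, limma adjusted p = 0.0214). That was 1 of 8 members, against 2.28% of all genes, and the same test for BRD and for ATPdead called 0. In A549 the effect with WT or BRD minus that with GFP or ATPdead was -3.27 for CCL2, -1.68 for CXCL1, -0.76 for CXCL3 and 1.64 for CXCL8 (limma adjusted p from 6.77e-05 to 0.0200). Those were 4 of 8 members, against 23.9% of all genes. The calls of CXCL2 and CXCL3 were lost in some settings, and the difference for CXCL8 was not called on its second probe set. The A549 differences rest on 8 arrays, with different cDNAs in the place of replicates.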

How the results depend on the processing

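Each call was tried under 13 to 23 alternatives. No call of a member reversed: 516 values kept their direction and call and 44 lost the call. Counts of members called moved by more than 1.5 times in 4 comparisons. For ATPdead against WT under S2sh7 in H1299 the count of 1 became 0 with only the arrays compared, and 0 to 2 when 1 array was left out. For the interaction with WT in H1299 it became 0 with the probe sets of each gene averaged and 0 with only the arrays compared, and 0 to 1 when 1 array was left out. For WT against GFP under shLuc in H1299 it was 0 to 1 when 1 array was left out. For S2sh7 over the 4 cDNAs in A549 it was 0 to 3 when 1 pair was left out. The lone array then left in an A549 pair is assumed to vary like the others.

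With a replicate block the counts of members called stayed at 4, 3, 2 and 4 for S2sh7 with GFP, WT, BRD and ATPdead in H1299, and at 1 for the interaction with WT. Among all genes the replicate block gave 4260 instead of 4359 for S2sh7 with GFP, and 5 instead of 9 for the interaction with ATPdead. Same-numbered arrays of different groups deviated together with a mean correlation of -0.01 (range -0.29 to 0.28 over 84 pairs). Of 24 arrays, 9 correlated best with their own number, so no shared effect of the replicate number was seen. Whether samples were made in matched sets cannot be told from these values.

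The number of all genes called moved by more than 1.5 times in comparisons with few calls: with no filter from 335 to 214 for the interaction with WT, from 9 to 5 for that with ATPdead, and under shLuc from 403 to 249 for WT and from 18 to 5 for ATPdead. With centred arrays it moved from 82 to 51 for the interaction with BRD, from 9 to 5 for that with ATPdead, and under shLuc from 201 to 102 for BRD, from 18 to 7 for ATPdead and from 0 to 1 in A549. Repeated quantile normalization gave 20 instead of 9 for BRD against WT under S2sh7. No scaling moved the median of all genes by over 0.1 log2. The NF-kB and IL-1 list kept 12 or 13 lower and 0 higher in H1299 with GFP, and 12 higher and 2 lower in A549 with GFP or ATPdead. Signal near the reference level limits IL32 under S2sh7 and CXCL8 under S2sh7 in A549, and the small number of arrays limits every A549 value.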
